A study of Mus musculus with 298 samples.

Results

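The 40 genes described here belong to the cell division cycle and were listed by name, with earlier results of these data known. They comprised 14 genes that act around DNA synthesis, called S phase genes here, and 26 that act from the end of DNA synthesis to the separation of the daughter cells, called mitotic genes. Ensembl identifiers matched 35 of the 40 to the 14605 genes of the table, all 14 S phase genes and 21 mitotic genes. Expression of Bub1, Kif11, Cenpe, Cenpf and Hmmr was not analysed here, and these 5 mitotic genes enter through their promoters only. RNA from the blood of 20 mice was sequenced in 298 libraries. The tissue was labelled PBMC (mononuclear cells), while the extraction protocol in the labels names whole blood. All mice carried 1 copy each of the tTA and BCR-ABL transgenes (tTA+/-, BCR-ABL+/-, SCLtTA/BCR-ABL on C57BL/6), in which the tetracycline-controlled activator tTA is driven by a regulatory element of the stem cell gene Scl and switches on the human leukaemia fusion gene BCR-ABL when tetracycline is absent. The mice were 6 to 8 weeks old at the start, and drinking water held 0.5 g of tetracycline per litre while the transgene was kept off. The control cohort (3 mice, 57 libraries, 2 female and 1 male) stayed on tetracycline. The cohort labelled CML (6 mice, 94 libraries, 4 female and 2 male) was taken off tetracycline at week 0. The cohort labelled TOTO (4 mice, 48 libraries, 3 female and 1 male) was off tetracycline until week 6 and then returned to it. The cohort labelled TKI (7 mice, 99 libraries, 3 female and 4 male) was off tetracycline throughout. It was given 50 mg per kg of nilotinib, which blocks the kinase that BCR-ABL encodes, from week 6 to week 10. All groups therefore shared both transgenes, and no mouse without them is among these samples. Whether sampling at week 6 preceded the start of nilotinib, or the return of tetracycline, was not stated in the labels used.

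Cells that prepare to divide switch these genes on in waves. E2F1 and the E cyclins open S phase, in which the MCM helicase unwinds DNA, PCNA holds the polymerases on it, and ribonucleotide reductase, thymidylate synthase and thymidine kinase supply its building blocks. Cyclins A and B with CDK1 then start mitosis, the Aurora and Polo-like kinases, survivin (Birc5) and kinesins build and cut the spindle, and CDC20 and UBE2C serve the complex that destroys the cyclins. Most leukocytes in healthy blood have left the cycle, whereas dividing cells sit mainly in bone marrow, and chronic myeloid leukaemia is known for immature myeloid cells that spill into blood.

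Promoters of S phase and mitotic genes are textbook cases of different control elements, so 4 mitotic and 2 S phase promoters that hold the searched motifs are shown. RefSeq promoter sequences (GRCm38.p6, 250 bases before each start) were found for 34 of the 40 genes, with 36 promoters in all. Searches on both strands used the cell cycle homology region (CHR, TTTGAA), the CCAAT box (CCAAT) and 4 spellings of an E2F site (TTTCCCGC, TTTCGCGC, TTTGGCGC and TTTGCCGC), whose matches can overlap one another. The last 150 bases before the start are printed 5′ to 3′ along the gene's strand, and capitals mark every match to a searched motif on either strand.
Ccnb2 (chr9:70421555-70421704, minus strand): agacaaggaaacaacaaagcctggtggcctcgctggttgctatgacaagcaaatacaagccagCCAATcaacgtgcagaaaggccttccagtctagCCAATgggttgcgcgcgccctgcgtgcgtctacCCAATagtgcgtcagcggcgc
Cks1b (chr3:89418292-89418441, minus strand): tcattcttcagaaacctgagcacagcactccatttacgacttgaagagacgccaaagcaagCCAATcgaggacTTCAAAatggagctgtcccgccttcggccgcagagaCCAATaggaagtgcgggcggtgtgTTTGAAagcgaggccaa
Cdc20 (chr4:118437344-118437493, minus strand): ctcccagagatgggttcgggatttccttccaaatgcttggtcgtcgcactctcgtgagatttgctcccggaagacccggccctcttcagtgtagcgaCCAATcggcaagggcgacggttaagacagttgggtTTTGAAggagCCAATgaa
Cdk1 (chr10:69352913-69353062, minus strand): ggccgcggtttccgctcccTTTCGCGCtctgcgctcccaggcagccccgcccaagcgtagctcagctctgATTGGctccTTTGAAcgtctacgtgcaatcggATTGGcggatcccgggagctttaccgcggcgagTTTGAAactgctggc
Mcm5 (chr8:75109359-75109508, plus strand): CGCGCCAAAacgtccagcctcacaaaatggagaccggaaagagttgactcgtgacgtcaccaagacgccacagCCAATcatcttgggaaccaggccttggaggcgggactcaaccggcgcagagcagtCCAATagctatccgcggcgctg
Mcm6 (chr1:128359706-128359855, minus strand): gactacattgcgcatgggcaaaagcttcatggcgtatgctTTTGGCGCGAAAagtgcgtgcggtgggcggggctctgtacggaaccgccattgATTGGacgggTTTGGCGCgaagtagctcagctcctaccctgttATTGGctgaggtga
A CHR match lay within the 250 bases of 9 of 23 mitotic promoters (39.1%), of 1 of 13 S phase promoters (7.69%) and of 16.0% of all 32851 promoters. The CCAAT letters were found in 21 of 23 mitotic promoters (91.3%), 9 of 13 S phase promoters (69.2%) and 33.8% of all. An E2F spelling was found in 3 of 13 S phase promoters (23.1%; Mcm5, Mcm6 and Mcm7), in 1 of 23 mitotic promoters (4.35%; Cdk1) and in 1.86% of all. These matches are descriptions of letters and not evidence of binding. The CHR match of Ccnb2 lies farther from the start than the printed bases. The printed bases of Mcm5 begin inside a TTTCGCGC match, so its first capitals, CGCGC, are the end of that match. They overlap a whole match, GCGCCAAA, which reads TTTGGCGC on the other strand.

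Levels of these genes in blood were low and spanned about 2 orders of magnitude on the deposited scale, TPM (a length-corrected share of each library's transcripts). The highest mean over the 298 libraries belonged to Ube2c, the ubiquitin-conjugating enzyme that loads the mitotic cyclins for destruction, with 24.8 TPM (lowest 0.531, highest 67.4). Pcna followed with 11.2 TPM (0.556 to 46.3), and Kif23, a kinesin of the spindle midzone needed for the final cut between daughter cells, with 8.55 TPM (0 to 37.6). Nusap1 (8.38 TPM) and Bub1b (7.80 TPM), both spindle proteins, and Cenpa (6.34 TPM), the histone of the centromere, were next. The 3 lowest means were 0.530 TPM for the mitotic kinase Aurka, 0.436 TPM for cyclin B1 (Ccnb1) and 0.264 TPM for the mitotic kinase Plk1. Mki67, the usual marker of cycling cells, averaged 2.31 TPM, Top2a, the DNA untangling enzyme of late S phase and mitosis, 1.85 TPM, Mcm5 2.67 TPM, Rrm2 0.973 TPM, Tyms 0.757 TPM and Cdk1 0.586 TPM. A mean of at least 1 TPM was reached by 22 of the 35, 9 S phase and 13 mitotic genes. The other 13 were Rrm2, Tyms, Ccne1, Ccne2 and E2f1 of S phase, and Ccnb1, Cdk1, Cdc20, Birc5, Aurka, Aurkb, Plk1 and Tpx2 of mitosis. Reads of Pcna, Ccnb2, Tyms and Ccnb1 could be shared with named processed copies elsewhere in the genome, so their values are uncertain. On the GRCm39 build, the genes the results turn on lie at chr9:70314966-70328874 (Ccnb2, ENSMUSG00000032218.8, minus strand), chr9:61823187-61854074 (Kif23, ENSMUSG00000032254.11, minus), chr11:117740040-117746581 (Birc5, ENSMUSG00000017716.16, plus), chr4:134195021-134201882 (Stmn1, ENSMUSG00000028832.12, plus), chr8:75836140-75856231 (Mcm5, ENSMUSG00000005410.7, plus) and chr2:132091082-132095234 (Pcna, ENSMUSG00000027342.15, minus). The plot of levels orders all 35.

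**Figure D1:**
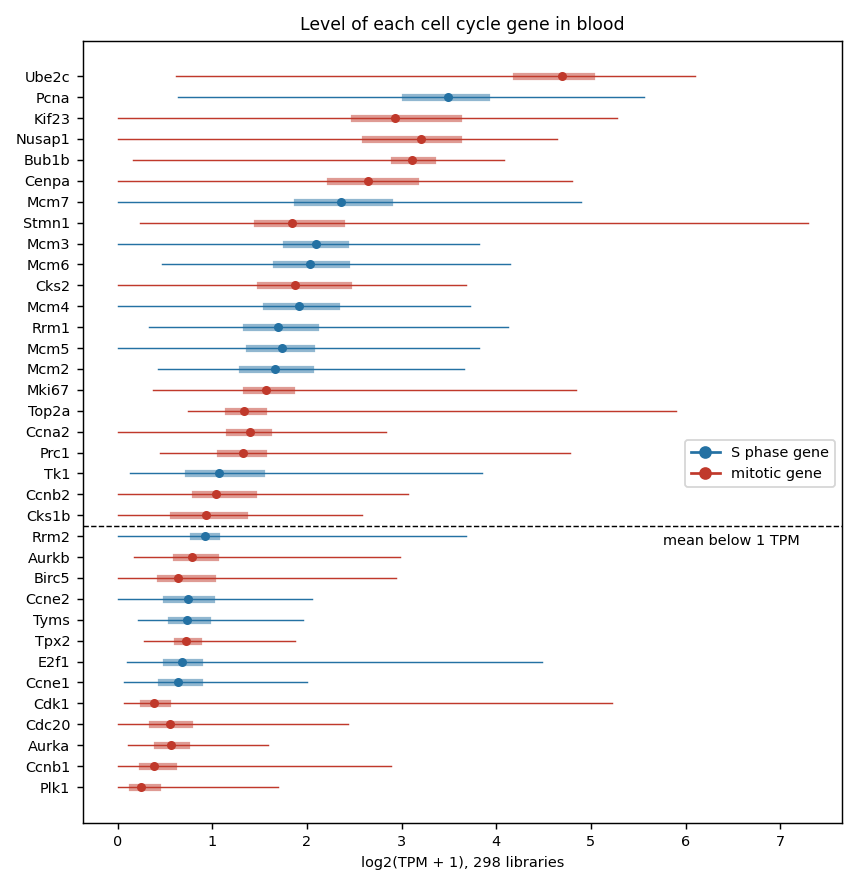
Level of each of the 35 genes on the log2(TPM + 1) scale over 298 libraries, with a point for the median, a thick line for the middle 50% and a thin line from the lowest to the highest library; S phase genes are blue, mitotic genes red. Genes below the dashed line have a mean below 1 TPM, and Ube2c lies at the top with a mean of 24.8 TPM.

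Each library's haemoglobin genes took between 0.331% and 74.8% of its TPM (median 42.6%), and since TPM are shares, every other gene's value moves with them. Changes are therefore given on 2 scales, as log2(TPM + 1) of the deposited values with genes of mean TPM at least 1 (22 of the 35, 10519 genes in all), and as log2(rescaled TPM + 1) after division by each library's median-ratio size factor with no filter (35 genes, 14605 in all). The second was added after results had been seen. By its name, the deposited table was already limited to genes that reached 1 TPM in several samples. No filter therefore means none beyond that limit. Every test compared changes within mice with limma across all genes, with Benjamini-Hochberg adjusted p. On the deposited scale, the shares of all genes called count both directions together. Labels went against the data in 1 mouse, labelled CML 487. It had BCR-ABL at 0 in 16 of 19 libraries and at most 0.409 TPM, within the range of the control libraries (at most 0.716 TPM). The fits with the filter, on deposited and on rescaled values, were recomputed without this mouse, and those with no filter were not. Its secondary granule gene Ngp, a marker of maturing neutrophils, stood at 0.37 at week 1 and at 4.99, 5.44 and 6.73 at weeks 16, 17 and 18 (log2(TPM + 1)), where the control libraries ran from 0.11 to 2.16 apart from 1 at 5.90. The control mouse 490 stood apart in single libraries. Its Cdk1 reached 36.3 TPM in week 10 and 19.7 TPM in week 18, against a median of 0.310 TPM over all libraries, and its week 17 library, one of 2 with fewer than 5000 genes at 1 TPM or more, gave Stmn1 at 156 TPM and Top2a at 58.5 TPM. Its week 18 library enters the comparisons with controls. Its week 10 library enters the nilotinib fits, in which control and CML mice share the estimate of the spread with the TKI mice. In these bulk samples, fewer cells of a type and less RNA per cell cannot be told apart.

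Transgene induction was compared as week 6 minus week 0 in the 17 mice taken off tetracycline. Cyclin B2 (Ccnb2), a partner of CDK1, rose and thymidine kinase (Tk1), which salvages thymidine for DNA synthesis, fell on the deposited scale. These 2 were the calls among the 22 tested genes, against 17.5% of all genes tested, so the share of the cell cycle genes called was below the background. Ccnb2 in the TKI mice ran from 0.570 to 1.10 TPM (median 0.891) at week 0 and from 1.63 to 3.95 TPM (median 2.80) at week 6. In the TOTO mice it went from 0.590 to 0.751 TPM at week 0 to between 1.17 and 4.06 TPM at week 6, and in the CML mice from a median of 0.699 TPM (0.591 to 1.52) to 1.08 TPM (0.685 to 3.49). The week 0 and week 6 values did not overlap in the TKI and TOTO mice and overlapped in the CML mice, while the control mice stayed between 0.642 and 0.887 TPM at both weeks. The mean log2 change of Ccnb2 was 0.76 ± 0.22 (SE, n = 17, limma adjusted p = 0.0129), higher in 15 of 17 mice. Within the batches named in the labels it was 0.43 (2021_E), 0.95 (2022_A) and 0.53 (2022_B). With batch as a term in the fit neither call held, Ccnb2 standing at 0.63 (adjusted p = 0.237) and Tk1 at -0.67 (adjusted p = 0.254), and without TKI mouse 502 the calls were 6, of which 5 were lower.

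Tk1 changed by -0.74 ± 0.25 (SE, n = 17, limma adjusted p = 0.0332) and was lower in 12 of 17 mice. Its cohorts went different ways: the TOTO mice fell from a median of 6.66 TPM (1.91 to 8.35) to 0.703 TPM (0.378 to 1.57), whereas the TKI mice were at 0.519 TPM (0.409 to 2.01) and then 1.06 TPM (0.548 to 1.36). The control mice also moved from 1.71, 5.09 and 3.85 TPM to 1.39, 1.27 and 2.37 TPM without induction. The call for Tk1 was lost without any 1 of TOTO 476, 482 or 483 or CML 477, 480, 484 or 487 (adjusted p 0.0515 to 0.0838), and against week 1 in place of week 0 its change was 0.042. The median haemoglobin share of TPM went from 13.2% to 47.2% in the TOTO mice and from 58.1% to 26.7% in the TKI mice. Mice of 1 cohort also differed. TOTO mouse 545 went from 55.2% to 24.9%, unlike the other TOTO mice. At week 0, CML mice 480, 484 and 487 held 6.67%, 16.8% and 6.76%, and CML mice 477, 541 and 542 held 53.0%, 60.4% and 56.5%. Control mice 488, 489 and 490 held 64.1%, 19.7% and 30.6%. The part of haemoglobin in the Tk1 result was not tested. The median change of all tested genes was -1.40 in TOTO, -0.84 in CML and 0.67 in TKI mice.

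Among the other S phase genes on the deposited scale, Mcm7 changed by -0.82 ± 0.33 (adjusted p = 0.0710), Mcm5 by -0.68 ± 0.30 (0.104) and Pcna by -0.48 ± 0.35 (0.332), and none passed. Mcm5 in the 4 TOTO mice was 11.1, 13.1, 11.2 and 3.35 TPM at week 0 and 0.818, 1.21, 2.22 and 2.75 TPM at week 6. The 4 mice were all lower at week 6, and the ranges did not overlap. Of the mitotic genes, Stmn1, which destabilises microtubules, changed by 0.67 (0.113), Mki67 by 0.45 ± 0.25 (0.187) and Top2a by 0.17 ± 0.23 (0.624). The median change was -0.68 for the 9 S phase genes, 0.17 for the 13 mitotic genes and -0.34 for all genes. With no filter on the deposited scale, Birc5 (0.77, adjusted p = 0.00176, 16 of 17 mice) and Ccnb1 (0.32, adjusted p = 0.0307, 13 of 17) also passed, while Cdk1 (0.12), Rrm2 (0.01) and Tyms (0.08) did not.

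On the rescaled values 13 of the 35 genes rose after induction, against 34.4% of all genes, and 6 fell, against 35.6%. The share that rose was near the background and the share that fell below it. The directions depended on the scaling. With haemoglobin genes removed instead, and with the filter, 3 of 31 genes rose and 12 fell, with no share of all genes given for this fit. The balance differed between cohorts, rescaled and with the filter (23 genes). In the TKI mice alone 5 genes rose, against 34.3% of all genes, and 12 fell, against 27.3%. In the TOTO mice alone 10 rose, against 37.1%, and 5 fell, against 25.6%, and in the CML mice alone 1 rose, against 16.8%, and 1 fell, against 11.1%. The 13 were Tyms and E2f1 of S phase and 11 of 21 mitotic genes, led by Stmn1 (1.09, limma adjusted p = 6.72e-07, higher in 16 of 17 mice), Birc5 (0.86, adjusted p = 4.84e-06, 17 of 17) and Ccnb2 (0.87, adjusted p = 6.26e-05), and with Ccnb1 (0.41), Mki67 (0.61) and Cdk1 (0.20). All 6 that fell were S phase genes: Tk1 (-0.33, lower in 17 of 17 mice), Mcm7 (-0.38), Mcm2 (-0.27), Rrm1 (-0.28), Mcm5 (-0.27, adjusted p = 0.00116) and Mcm6 (-0.16). Pcna (-0.03), Rrm2 (0.17) and Top2a (0.39, adjusted p = 0.0501) did not pass. In the same libraries the secondary granule genes of maturing neutrophils rose (7 of 7 tested on the deposited scale, median 3.23) and the B cell genes fell (8 of 8, median -1.46), and their part in these results was not tested.

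Set against the 3 control mice over the same weeks, induction gave no call among the 22 genes, against 0.019% of all genes, and none had an unadjusted p below 0.05 in limma, as 264 of the 10519 genes did. The closest were Stmn1 (1.45 ± 0.75, unadjusted p = 0.0587) and Ccnb2 (0.84 ± 0.52, unadjusted p = 0.112), with Pcna (0.44, unadjusted p = 0.615) and Mcm4 (0.28, unadjusted p = 0.710) closest in S phase. Mki67 differed by 0.50, Top2a by 0.38 and Mcm5 by 0.05, and with no filter Ccnb1 by 0.52, Rrm2 by 0.39, Tyms by 0.27 and Cdk1 by 0.13, none of which passed. After rescaling, Stmn1 (1.19 ± 0.31, adjusted p = 0.0305) and E2f1 (0.33 ± 0.10, adjusted p = 0.0392) rose more than in the controls, 2 of 35 genes against 7.68% of all, and none fell, against 5.74%. Stmn1 in the control mice went from between 1.86 and 5.42 TPM at week 0 to between 1.04 and 2.53 TPM at week 6, and in the TKI mice from a median of 0.952 TPM (0.559 to 1.92) to 5.86 TPM (4.30 to 6.17), with no overlap between the weeks.

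The last library of each CML mouse was compared with week 18 of the controls, each as a change from week 0. That library was from week 7 in mouse 477, week 11 in 484, week 16 in 542 and week 18 in 480, 487 and 541. Time was therefore not matched for mice 477, 484 and 542. No gene of the 22 passed, against 0.0951% of all genes, and Ccnb2 alone had an unadjusted p below 0.05 (1.15 ± 0.49, unadjusted p = 0.0238, n = 6 and 3, limma), as 259 of all genes did. Ccnb2 stood at 4.46, 6.50, 3.21, 1.30, 4.65 and 1.58 TPM in mice 477, 480, 484, 487, 541 and 542, and at 0.767, 0.896 and 0.967 TPM in the controls, with no overlap. Mki67 differed by 1.20 ± 0.64 (unadjusted p = 0.0664), Top2a by 0.69, Tk1 by 0.25, Pcna by -0.21 and Mcm5 by -0.23. After rescaling, Birc5, the survivin of the chromosomal passenger complex, was the 1 call of 35 (1.05 ± 0.19, adjusted p = 0.0381, higher in 6 of 6 CML mice), against 0.212% of all genes. Its last values were 3.27, 3.80, 0.874, 0.533, 3.87 and 0.579 TPM in the same order of mice and 0.298, 0.159 and 0.217 TPM in the controls. The difference was 1.30 within batch 2021_E and 0.97 within 2022_A, and batch 2022_B held no control. With the variance trend taken over the mean change no cell cycle gene passed. The rescaled fit that gave the Birc5 call was not recomputed without mouse 487, which is among the 6 CML mice. Cdk1 did not pass on either scale (-1.16 deposited with no filter), and the control mouse 490 held 19.7 TPM at week 18, where the other 2 controls held 0.147 and 0.149 TPM. In the same fit Ccnb1 (0.71), Rrm2 (0.54) and Tyms (0.37) did not pass.

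Nilotinib was followed in the 7 TKI mice as week 10 minus week 6. Kif23, Ccnb2 and Stmn1 fell on the deposited scale, 3 of 22 genes against 8% of all genes, and no S phase gene passed. Kif23 was 15.7, 15.3, 16.9, 10.9, 14.5, 5.44 and 6.53 TPM at week 6 in mice 502, 507, 508, 511, 512, 513 and 514, and 5.63, 4.49, 7.41, 4.81, 7.99, 4.15 and 2.49 TPM at week 10. All 7 mice were lower at week 10, although the lowest week 6 values, of mice 513 and 514, lay within the week 10 range. The change was -1.03 ± 0.21 (SE, n = 7, limma adjusted p = 0.00393), and -1.19 and -0.82 within batches 2022_A and 2022_B. Ccnb2 went from 2.87, 2.72, 3.61, 3.95, 2.80, 1.63 and 2.15 TPM to 0.826, 1.27, 1.60, 1.63, 1.62, 1.66 and 1.11 TPM, lower in 6 of 7 mice. Mouse 513 alone did not fall. Its change was -0.66 ± 0.17 (adjusted p = 0.0133), and the call was lost without mouse 502 (adjusted p = 0.0613) or 508 (0.0561). Stmn1 went from a median of 5.86 TPM (4.30 to 6.17) to 2.58 TPM (1.91 to 5.00), a change of -0.78 ± 0.24 (adjusted p = 0.0424, 6 of 7 mice). That call was lost without any 1 of TKI 502, 507, 508, 511, 512 or 514 or CML 487 or 541, which shared the fit (adjusted p 0.0517 to 0.133).

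No S phase gene passed over the same 4 weeks. Mcm5 had medians of 2.59 TPM (1.76 to 2.98) and 2.47 TPM (1.52 to 3.57), a change of 0.00 (adjusted p = 0.996), and Pcna medians of 11.0 TPM (7.53 to 13.2) and 11.7 TPM (7.46 to 16.5), a change of 0.09 (0.869). Tk1 (0.27, adjusted p = 0.401) and Mcm7 (0.26, adjusted p = 0.489) had the smallest p of the class. Mki67 changed by -0.39 ± 0.16 (0.155) and Top2a by -0.24 (0.320). The median change was 0.14 for the S phase genes, -0.39 for the mitotic genes and 0.07 for all genes.

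Genes of low level fell with them. With no filter on the deposited values, Birc5 (-0.75, limma adjusted p = 0.0119), Ccnb1 (-0.54, adjusted p = 0.0119) and Plk1 (-0.37, adjusted p = 0.0213) were lower in 7 of 7 mice each, while Stmn1 no longer passed. Birc5 was 1.89, 2.11, 1.79, 2.32, 2.19, 1.10 and 1.25 TPM at week 6 and 0.529, 0.778, 0.629, 0.550, 0.687, 0.992 and 0.399 TPM at week 10, and the 2 weeks did not overlap. Ccnb1 was 0.987, 0.880, 1.23, 0.745, 0.987, 0.574 and 0.384 TPM and then 0.211, 0.167, 0.262, 0.133, 0.395, 0.386 and 0.179 TPM, each mouse lower, with mouse 514 at week 6 inside the week 10 range. Rrm2 (-0.29), Tyms (-0.35) and Cdk1 (-0.29) did not pass. On the rescaled values 16 of the 35 genes fell, against 15.9% of all genes, and none rose, against 14.5%. They were 14 of 21 mitotic genes, among them Birc5 (-0.73, adjusted p = 0.000103), Kif23 (-1.07), Ccnb2 (-0.65), Stmn1 (-0.80), Cks2 (-0.65) and Mki67 (-0.42, adjusted p = 0.0314), and 2 S phase genes, Rrm2 (-0.30, adjusted p = 0.0120, 7 of 7 mice) and Tyms (-0.35, adjusted p = 0.0429). Top2a (-0.26) and Ccnb1 (-0.50) fell, whereas Mcm5 (-0.05), Pcna (0.04) and Cdk1 (-0.26, adjusted p = 0.624) did not pass. The spread behind that value for Cdk1 includes control mouse 490, with 36.3 TPM at week 10. Without that mouse, an alternative added after seeing the data, Cdk1 fell (-0.26 ± 0.085, adjusted p = 0.0343), making 17 calls of 35 genes, and on the deposited values with no filter it did not pass (-0.29, adjusted p = 0.169). At week 8 in place of week 10, 12 of the 22 genes passed on the deposited scale, against 36.4% of all genes, and of these Bub1b rose (0.45).

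**Figure D2:**
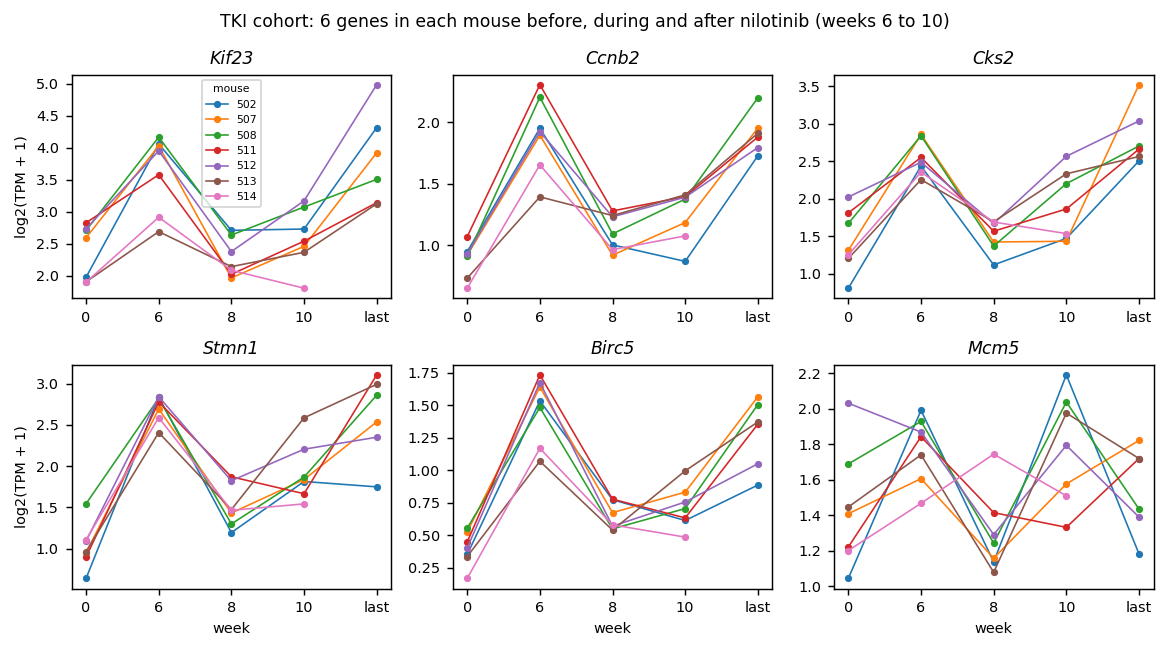
Level of 6 genes, log2(TPM + 1), in each of the 7 TKI mice at weeks 0, 6, 8 and 10 and in the last library of the 6 mice sampled beyond week 10 (the last position, weeks 11 to 16). Lines join the libraries of a mouse; Kif23 and Birc5 are lower at week 10 than at week 6 in all 7, and Mcm5 shows no common direction.

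Markers of other cells moved over the same weeks. The summed TPM of 8 neutrophil precursor genes went from a median of 20.1 (12.9 to 23.8) at week 6 to 5.48 (3.48 to 11.8) at week 10 in the TKI mice, where control mice at week 6 had 0.440 to 1.99. Only 2 of these 8 genes reached a mean of 1 TPM, and Mpo and Elane were below it. Secondary granule genes went from a median sum of 2060 TPM (782 to 2868) to 432 TPM (192 to 1118), and 7 of 7 tested fell (median -1.92). T cell genes rose, 8 of 8 (median 1.07). The transgene itself stood at a median of 11.1 TPM (4.58 to 36.0) at week 6 and 9.82 TPM (4.29 to 21.0) at week 10. The part of these shifts in the fall of the mitotic genes was not tested.

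Set against the 5 CML mice with both weeks, 2 of 22 genes fell under nilotinib on the deposited scale, against 3.46% of all genes. Kif23 differed by -1.42 ± 0.32 (limma adjusted p = 0.0145) and Ccnb2 by -0.96 ± 0.26 (adjusted p = 0.0322). Untreated CML mice 480, 541, 484, 487 and 542 held Kif23 at 11.3, 3.00, 7.31, 5.16 and 3.50 TPM at week 6 and at 7.49, 5.92, 18.1, 7.12 and 3.66 TPM at week 10, higher in 4 of 5. Both calls rested on single mice: Kif23 was lost without CML 484 (-1.21, adjusted p = 0.0570) or 541 (0.0605), and Ccnb2 without CML 484 (-0.70, adjusted p = 0.137), CML 541, or any 1 of TKI 502, 507, 508, 511 and 514 (0.0514 and above). Within batch 2022_A (4 against 1 mouse) the differences were -2.39 for Kif23 and -2.12 for Ccnb2, and within 2022_B (3 against 2) -1.05 and -0.48. Mki67 differed by -0.49, Top2a by -0.43, Pcna by -0.10, Mcm5 by -0.07, Mcm7 by 0.32 (unadjusted p = 0.291) and Tk1 by 0.15 (unadjusted p = 0.585), and none passed. With no filter no cell cycle gene passed (3 were lower without control mouse 490), Ccnb1 standing at -0.65 (adjusted p = 0.0588), Tyms at -0.58, Cdk1 at -0.45 and Rrm2 at -0.24. With rescaled values 9 of 35 genes were lower, against 9.95% of all, and 1 was higher, against 6.57%. The 9 were all mitotic: Birc5 (-0.84), Kif23 (-1.22), Plk1 (-0.42), Cks1b (-0.68), Ccnb1 (-0.50), Ccnb2 (-0.78), Cdc20 (-0.46), Cks2 (-0.88) and Aurka (-0.35). The gene that was higher was Mcm7 (0.44, adjusted p = 0.0311).

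After nilotinib ended, the last library of the 6 mice sampled beyond week 10 was compared with their week 10. That library was from week 16 in mice 502, 507 and 512, week 12 in 508 and week 11 in 511 and 513, so the time since nilotinib differed. Kif23, Mki67 and Cks2 rose and Nusap1 fell on the deposited scale, 4 of 22 genes against 26.8% of all genes. Kif23 reached 18.9, 14.1, 10.4, 7.82, 30.7 and 7.71 TPM in mice 502, 507, 508, 511, 512 and 513, above the week 10 value of every mouse except that 511 and 513 lay below mouse 512's week 10. It changed by 1.11 ± 0.28 (SE, n = 6, limma adjusted p = 0.00401), higher in 6 of 6 mice. Mki67 went from 2.05, 2.80, 2.32, 1.34, 1.88 and 2.97 TPM to 18.9, 27.7, 3.85, 1.49, 3.78 and 1.86 TPM. Mice 502 and 507 were far above the other 4, and mouse 513 was lower. Its change of 1.09 ± 0.36 (adjusted p = 0.0273, 5 of 6 mice) was lost without mouse 502 (0.76, adjusted p = 0.0909) or 507 (0.72, adjusted p = 0.112), and was 1.73 within batch 2022_A and -0.19 within 2022_B. Batch 2022_B held only the week 11 mice 511 and 513 here, so batch and time since nilotinib cannot be told apart.

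Cks2, a small partner of CDK1, rose by 0.85 ± 0.29 after nilotinib (limma adjusted p = 0.0283, 6 of 6 mice), and was lost without mouse 502 (0.82, adjusted p = 0.0565) or 507 (0.61, adjusted p = 0.224). Nusap1, a spindle protein, was 4.65, 6.77, 7.76, 6.96, 2.57 and 4.32 TPM at week 10 and 5.07, 1.84, 4.19, 0.392, 1.19 and 0.820 TPM in the last library, lower in 5 of 6 (-1.15 ± 0.30, adjusted p = 0.00558). Ccnb2 was higher in 6 of 6 mice with 0.64 (adjusted p = 0.0512). No S phase gene passed, with Tk1 at -0.54 (0.122), Mcm2 at -0.44 (0.221), Pcna at -0.20 and Mcm5 at -0.27, and Top2a was at 0.02. With no filter Ccnb1 (0.51, adjusted p = 0.0250), Birc5 (0.53, 0.0301) and Plk1 (0.34, 0.0334) rose, and Cdk1 (0.30), Tyms (0.23) and Rrm2 (0.21) did not pass. On the rescaled values 10 of 35 genes rose, against 19.8% of all genes, and 2 fell, against 20.1%. Rescaled with the filter, 7 of 23 passed, and 3 without mouse 508, with no share of all genes given for these fits. The 10 were mitotic: Cdc20 (0.39, adjusted p = 0.00939), Ccnb1 (0.50), Birc5 (0.53), Plk1 (0.34), Kif23 (1.18), Cenpa (0.40), Aurka (0.27), Stmn1 (0.65), Cks2 (0.89) and Ccnb2 (0.65). Mcm2 (-0.35) and Mcm6 (-0.35) fell, and neither Mki67 (1.16, adjusted p = 0.137) nor Nusap1 (-0.98, adjusted p = 0.126) passed on that scale. In the same libraries the secondary granule genes rose (7 of 7, median 3.19) and the B cell genes (8 of 8, median -2.44) and platelet genes (8 of 8, median -2.53) fell, whose part was not tested.

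Return to tetracycline was followed in the 4 TOTO mice as week 18 minus week 6. Ccnb2 and Cks1b, another small partner of the cyclin-dependent kinases, fell and Mcm7, a subunit of the MCM helicase, rose, 3 of 22 genes against 26.7% of all genes. Ccnb2 went from 1.17, 1.48, 3.04 and 4.06 TPM in mice 476, 482, 483 and 545 to 0.909, 0.596, 0.596 and 0.621 TPM. Cks1b went from 0.689, 1.11, 1.66 and 2.40 TPM to 0.411, 0.173, 0.747 and 0.243 TPM, and Mcm7 from 1.35, 2.41, 2.62 and 4.58 TPM to 8.90, 3.33, 7.15 and 6.53 TPM. Each moved the same way in 4 of 4 mice, and for Ccnb2 the weeks did not overlap. The changes were -0.95 ± 0.26 (limma adjusted p = 0.00876), -0.79 ± 0.24 (0.0145) and 1.01 ± 0.34 (0.0277). Each call was lost without 1 mouse: Ccnb2 without 483 (-0.82, adjusted p = 0.0761), Cks1b without 545 (-0.57, 0.0713), and Mcm7 without 476 (0.65, 0.160) or 483 (0.114). All 4 mice belonged to 1 batch, and the fit shared its spread with CML and control mice. With batch as a term 0 genes passed. Leaving out mouse CML 487 gave 9 calls (6 higher, 3 lower), mouse CML 541 gave 7 (4 higher, 3 lower) and mouse TOTO 545 gave 8 (7 higher, 1 lower). The share of all genes is not given for these fits without 1 mouse.

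Pcna in the TOTO mice went from 3.51, 5.08, 7.07 and 13.2 TPM at week 6 to 19.0, 9.20, 15.2 and 10.6 TPM at week 18 (0.90 ± 0.36, adjusted p = 0.0537), and Mcm5 changed by 0.71 (0.0851), Stmn1 by -0.86 (0.0506), Top2a by -0.44 (0.193) and Mki67 by -0.31 (0.400). The median change was 0.72 for S phase genes, -0.31 for mitotic genes and 0.44 for all genes. With no filter, Birc5 fell (-0.91, adjusted p = 0.0224) and Ccne2, an E cyclin, rose (0.70, adjusted p = 0.0283), while Ccnb1 (-0.34), Cdk1 (-0.25), Rrm2 (-0.09) and Tyms (-0.08) did not pass. Birc5 went from 0.733, 1.44, 1.70 and 2.12 TPM to 0.329, 0.212, 0.355 and 0.294 TPM, without overlap. On the rescaled values 15 of 35 genes fell, against 25.2% of all genes, and 3 rose, against 24.1%. Rescaled with the filter 12 of 23 passed (3 higher), 7 without TOTO 476 and 8 without TOTO 483, and in either case 0 were higher. With haemoglobin genes removed instead, 13 of 31 genes rose and 4 fell. The share of all genes is not given for these fits with the filter. The 15 were 13 of 21 mitotic genes, with Ccnb2 (-1.32), Birc5 (-1.21), Stmn1 (-1.37), Cks1b (-1.08), Mki67 (-0.76), Top2a (-0.87) and Ccnb1 (-0.55) among them, and E2f1 (-0.44) and Rrm2 (-0.43) of S phase. Rrm1 (0.31), Mcm7 (0.47) and Pcna (0.30) rose. Neutrophil precursor genes summed to between 6.02 and 26.7 TPM at week 6 and between 0.806 and 1.43 TPM at week 18 in these mice, and B cell genes rose (8 of 8, median 1.98); their part was not tested.

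The level reached at week 18 was compared with the controls, each from week 0. No cell cycle gene passed for TOTO minus control, against 0% of all genes, and none had an unadjusted p below 0.05 in limma, as 26 of all genes did. Cks2 (-0.93, unadjusted p = 0.210), Ccna2 (0.53), Mcm5 (-0.35) and Mcm2 (-0.33) were the closest of their classes. The controls themselves showed no call between week 0 and week 18, again 0% of all genes, and of the 22 only Mcm7 had an unadjusted p below 0.05 (-1.13 ± 0.56, unadjusted p = 0.0497), as 480 of all genes did. Rrm1 was next in S phase (-1.04 ± 0.53), with Stmn1 (-0.75) and Cenpa (-0.72) for the mitotic genes. In TOTO minus control Mki67 stood at 0.24, Top2a at -0.17, Pcna at -0.26, Ccnb1 at 0.08, Rrm2 at 0.16, Tyms at -0.18 and Cdk1 at -1.22, and in the controls alone Mki67 at -0.11, Top2a at -0.25, Pcna at -0.68, Mcm5 at -0.82, Ccnb1 at -0.17, Rrm2 at -0.37, Tyms at -0.03 and Cdk1 at 1.28, where mouse 490 held 19.7 TPM at week 18. With 3 control mice these comparisons leave wide intervals, so an absent call is not evidence of equal levels.

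Switching the transgene off was compared with inhibiting its product over the first 2 weeks, as the week 8 minus week 6 change of the 4 TOTO mice minus that of the 7 TKI mice. By week 8 the transgene was at 0 TPM in all 4 TOTO mice and at a median of 3.52 TPM (1.96 to 4.96) in the TKI mice. On the deposited scale 13 of 22 genes differed, against 82% of all genes, so the share was below the background. All 9 tested S phase genes were higher: Mcm7 (2.01 ± 0.34, limma adjusted p = 4.72e-05), Pcna (1.96), Rrm1 (1.79), Mcm5 (1.69, adjusted p = 4.93e-05), Mcm6 (1.62), Mcm4 (1.60), Mcm2 (1.54), Mcm3 (1.39) and Tk1 (1.16). Among mitotic genes Cenpa (1.89 ± 0.37, adjusted p = 0.000124), Cks2 (1.48) and Stmn1 (0.84, adjusted p = 0.0147) were higher and cyclin A2 (Ccna2; -0.61 ± 0.23, adjusted p = 0.0178) lower, while Mki67 (0.31, 0.287) and Top2a (0.46, 0.0646) did not pass. With no filter Rrm2 (0.53, adjusted p = 0.00520) and Tyms (0.58, 0.0189) were also higher, and Ccnb1 (0.38, 0.0568) and Cdk1 (0.24, 0.201) did not pass. Ccna2 was lost without TOTO 483 (adjusted p = 0.0504) and Stmn1 without TOTO 476 (0.0747). Mcm5 in the TOTO mice went from 0.818, 1.21, 2.22 and 2.75 TPM at week 6 to 4.77, 4.23, 6.50 and 5.13 TPM at week 8, with no overlap, and in the TKI mice from a median of 2.59 TPM (1.76 to 2.98) to 1.37 TPM (1.11 to 2.35).

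The median of all genes in that comparison was 1.39 on the deposited scale, and the calls changed with the scale. After rescaling, 5 of 35 genes were higher in TOTO than in TKI mice, against 19.1% of all genes, and 15 were lower, against 22.5%. The 5 were S phase genes: Rrm1 (0.46), Mcm7 (0.48), Mcm4 (0.23), Mcm5 (0.37) and Pcna (0.23). The 15 were 14 of 21 mitotic genes, with Ccnb2 (-1.05, adjusted p = 5.18e-05), Ccna2 (-1.72), Mki67 (-0.91), Birc5 (-0.69), Top2a (-0.71), Stmn1 (-0.55), Ube2c (-1.90), Bub1b (-1.77) and Nusap1 (-1.53) among them, and E2f1 (-0.42). Only 6 of the 13 calls of the deposited scale held in the same direction, and Stmn1 turned from higher to lower. Within batch 2022_A (4 mice each) the deposited differences were 1.85 for Mcm5, 2.18 for Pcna and 2.19 for Mcm7. In the rescaled data 12 of 13 erythroid genes were also lower (median -2.60) and 8 of 8 B cell genes higher (median 1.35), and their part was not tested.

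**Figure D3:**
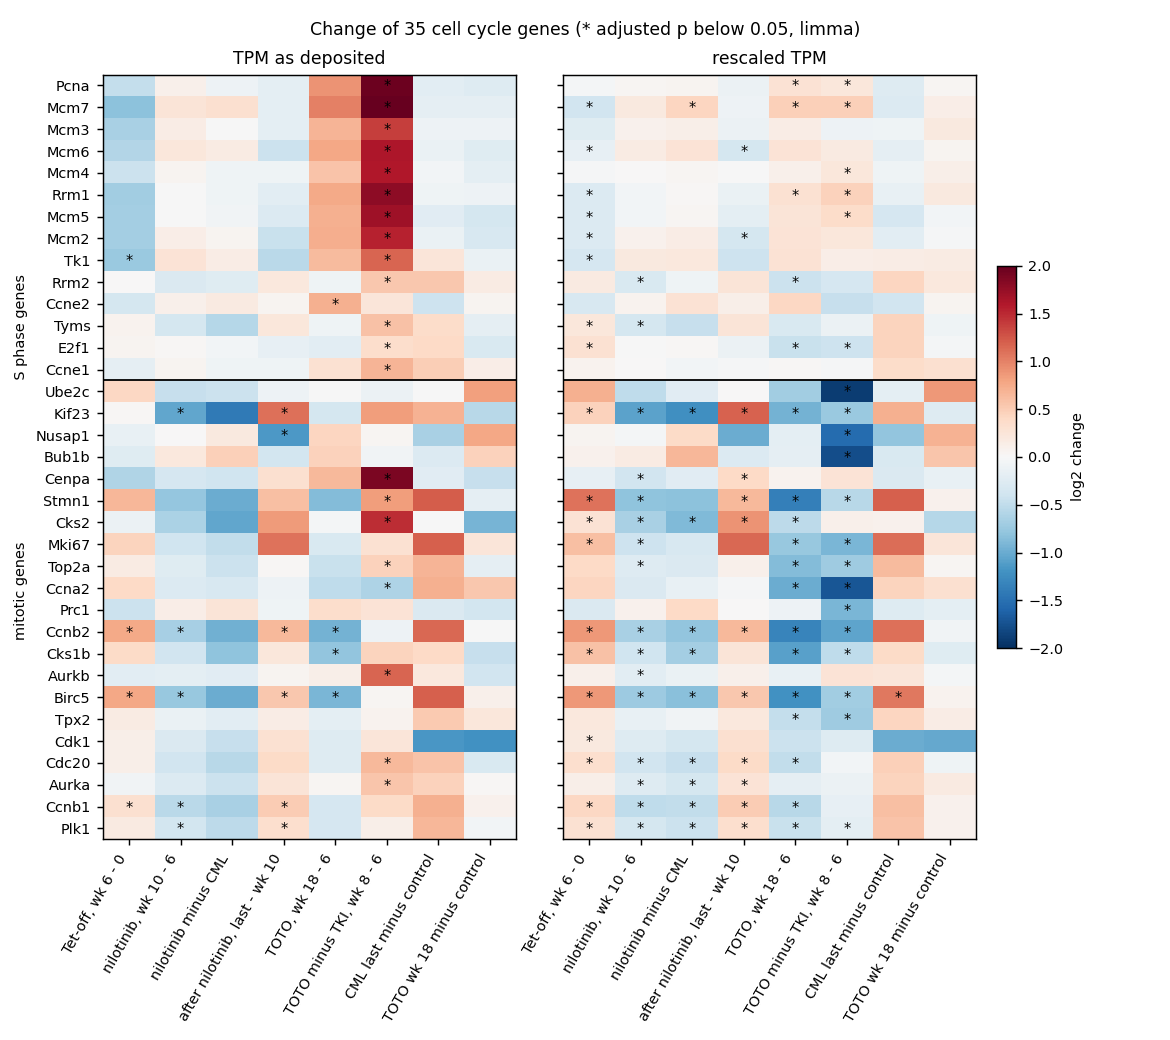
Change of each of the 35 genes in 8 comparisons as a colour, from blue (log2 change of -2 or less) to red (2 or more), with a star where limma's adjusted p is below 0.05; the left panel uses deposited TPM with no filter, the right panel rescaled TPM with no filter. S phase genes are above the line and mitotic genes below it, and the stars of the nilotinib column on the right are all on falling genes, 14 of them mitotic.

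The mean over each class gives 1 number a library. On the rescaled log2 scale the mitotic mean of the TKI mice was 1.85 ± 0.23 (SD, n = 7) at week 0, 1.74 ± 0.13 at week 6 and 1.36 ± 0.14 at week 10, and that of the TOTO mice 0.97 ± 0.32 (SD, n = 4) at week 0, 1.97 ± 0.27 at week 6, 1.16 ± 0.14 at week 8 and 1.36 ± 0.16 at week 18. Untreated, it was 1.24 ± 0.45 (SD, n = 6) at week 0 and 1.73 ± 0.40 at week 6 in the CML mice. In the control mice it was 1.23 ± 0.40 (SD, n = 3) at week 0, 1.89 ± 0.58 at week 1, 1.38 ± 0.26 at week 2, 1.55 ± 0.20 at week 6 and 1.57 ± 0.11 at week 18. The mean was thus lower at week 6 than at week 0 in the TKI mice and higher in the other cohorts, controls included. At week 0 it also differed between mice of 1 cohort. It was 0.77 in TOTO mouse 482 and 1.44 in TOTO mouse 545, 0.78 in CML mouse 480 and 1.82 in CML mouse 541, and 0.98 in control mouse 490 and 1.69 in control mouse 488. The S phase mean was 1.51 at week 6 and 1.52 at week 10 in the TKI mice, and 1.53 at week 6 and 1.62 at week 8 in the TOTO mice. These are descriptions of members chosen by name and carry no test. The weekly courses of 8 genes show the same weeks gene by gene.

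**Figure D4:**
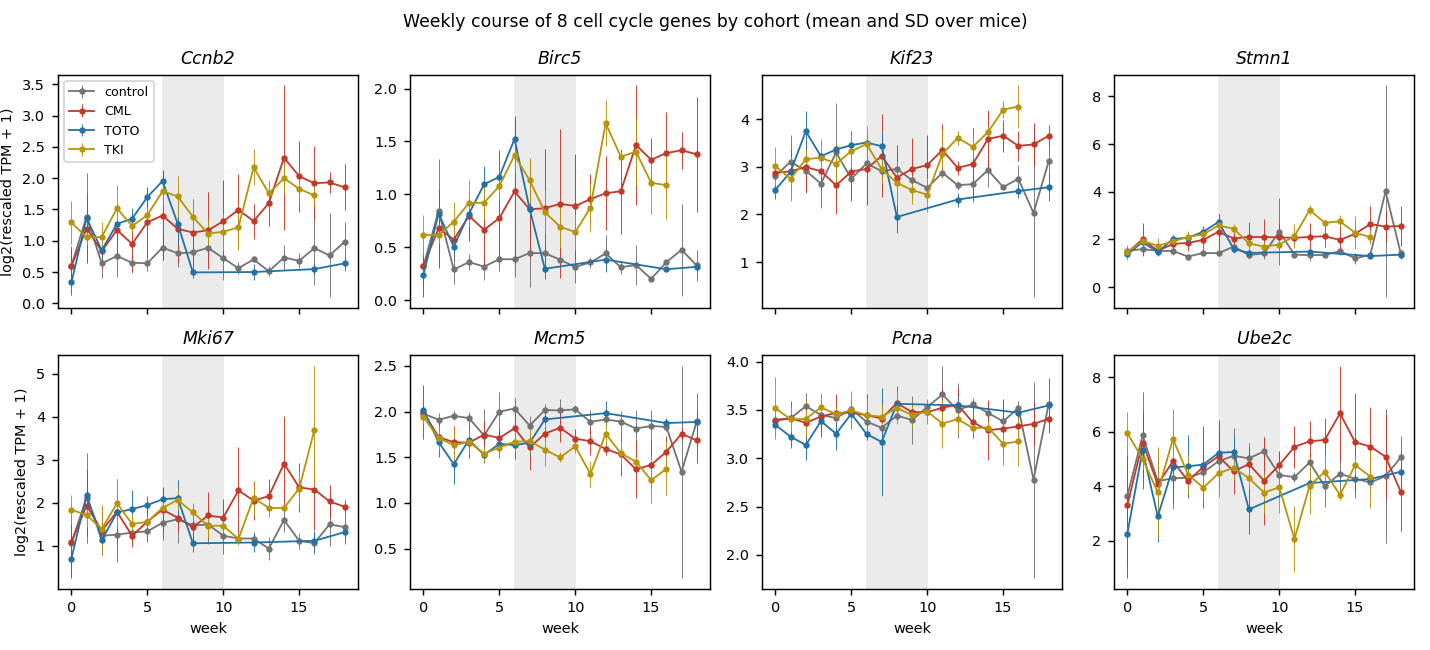
Weekly course of 8 genes, log2(rescaled TPM + 1), as the mean over the mice of a cohort with the SD as bars (no bar where 1 mouse was left); grey shading covers weeks 6 to 10. Ccnb2, Birc5 and Stmn1 of the TOTO cohort (blue) drop after week 6, while Mcm5 and Pcna stay nearer a constant level.

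Ube2c, Nusap1, Bub1b and Prc1 took another course, a group picked after its values were seen and given without a test. Ube2c in the TOTO mice was 8.35, 5.48, 6.00 and 29.2 TPM at week 0 and 33.2, 29.5, 30.9 and 17.5 TPM at week 6, higher in 3 of 4 mice, whereas in the TKI mice it had medians of 33.1 TPM (23.6 to 58.2) and then 22.8 TPM (15.4 to 47.3). These opposite directions ran with the median haemoglobin share of the cohorts over the same weeks, given above for Tk1. TOTO mouse 545, in which Ube2c fell, also had a lower haemoglobin share at week 6 than at week 0. The part of haemoglobin in the changes of Ube2c was not tested, and the plot of genes beside marker genes sets both side by side in every library.

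**Figure D5:**
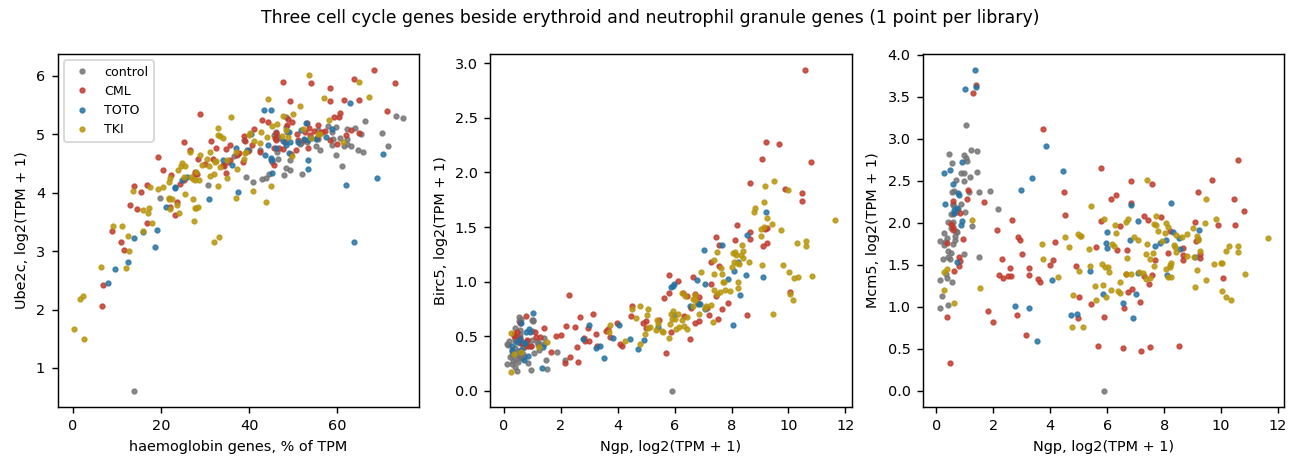
Log2(TPM + 1) of Ube2c against the percentage of TPM in haemoglobin genes (left), and of Birc5 (middle) and Mcm5 (right) against log2(TPM + 1) of the secondary granule gene Ngp, with 1 point for each of 298 libraries coloured by cohort. Libraries of a mouse are not independent, so the panels describe and do not test a relation.

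Other genes of the cycle, taken from 3 lists made for this purpose, moved as follows on the deposited scale. The shares of all genes set beside counts of rises or falls again count both directions together. Of 16 further replication genes, 3 fell at induction, led by Pold1, the catalytic subunit of DNA polymerase delta (-1.37), with Rfc3 (-0.72) and Atad2 (-0.89), against 17.5% of all genes. Under nilotinib 1 rose (Dut, 0.79), against 8%, and after nilotinib 2 fell (Dut, -2.25, and Pold1, -1.07), against 26.8%. At week 18 of TOTO 8 rose, against 26.7%, with Pold1 (1.67), Rfc3 (1.00) and Rpa2 (1.01). In TOTO minus TKI, where 82% of all genes differed with a median of 1.39, 15 of the 16 were higher, with a median of 1.45 and with Pold1 (2.77), Rfc3 (1.77) and the methyltransferase Dnmt1 (1.59) among them. Of 18 further mitotic genes, Cdca3 rose (0.64) and 3 fell at induction, among them Smc4 (-1.27) and Cdc25b (-1.15). Under nilotinib 3 fell, Cdca3 (-0.74), Lmnb1 (-1.09) and Hmgb2 (-0.91), and Cdc25b rose (0.81). Against CML 3 were lower, Cdca3 (-1.03), Hmgb2 (-1.60) and Lmnb1 (-1.48). After nilotinib 4 rose, with Hmgb2 (1.58), Lmnb1 (1.24) and Hjurp (1.06), and in TOTO at week 18 Smc4 (1.49) and Cdc25b (1.29) were among 3 that rose, while Cdca3 fell (-0.82). In TOTO minus TKI 15 of the 18 were higher, with a median of 1.31 and with Bub3 (1.85), Ncapd2 (1.67) and Mad2l1 (1.32) among them. The shares of all genes that changed, given above, apply to these 18 genes too, with 3.46% for the comparison against CML.

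Of 21 tested regulators of entry into the cycle, none changed at induction, where 17.5% of all genes did. Under nilotinib cyclin D1 (Ccnd1, 0.61) rose and the antiproliferative gene Tob1 (-0.73) fell, against 8% of all genes, and after nilotinib 3 rose and 4 fell, against 26.8%, with Ccnd1 (-1.42), Tob1 (1.61) and the CDK inhibitor Cdkn2d (1.41). At week 18 of TOTO 3 rose, Trp53 (1.08), Rbl1 (0.77) and Rbl2 (0.91), against 26.7%. In TOTO minus TKI, where 82% of all genes differed in either direction, 15 of the 21 were higher. Their list had a median of 1.22, with Trp53 (2.40), Btg2 (2.27) and Cdkn1b (2.08) among the higher genes. None of the 3 lists held a call in induction minus control, in CML minus control or in either week 18 minus week 0 comparison.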

How the data were processed

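RNA was sequenced from blood of 20 mice in 298 libraries after ribosomal RNA depletion with strand marked, and RNA integrity above 4, per the labels' protocols. The deposited table holds TPM per gene and library, made by the authors with STAR and Salmon on GRCm39, per the submitters' processing notes, which give no versions. TPM sums ran from 989100 to 999879 per library, and read depth is unknown, so no counting interval was formed. Of 14605 genes, 14537 matched GENCODE mouse release identifiers and 4 were human transgene genes. Strand was marked, so genes that overlap on opposite strands (among them Ube2c, Mcm7, Tk1, Cdk1 and Aurka) could be told apart only as far as Salmon used it, which the labels and notes do not say.

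Values were taken as log2(TPM + 1), genes were kept at a mean of at least 1 TPM (10519), and each mouse gave 1 change per comparison, so the mouse was the block. Groups sampled at the same weeks shared 1 estimate of the spread: the nilotinib fits also held CML and control mice, and the TOTO week 18 fit the same. The pairing comes from the labels, since both weeks are from the same animal. Deviations of the same mouse at weeks 0 and 6 correlated at a mean of 0.20 (n = 20), and of different mice at -0.04. Changes were tested with limma 3.58.1 (R 4.3.3; tables were read by data.table, release 1.17.8), and p was adjusted over all genes by Benjamini-Hochberg at 0.05. In all 10 comparisons were made. The trend of the variance was fitted on the mean level of the libraries compared. It was the third of 3 choices run, after the mean change and the mean of all libraries, and it was settled after results had been seen. Rescaled values were divided by median-ratio size factors over 13486 genes present in at least 90% of libraries (0.132 to 4.18). For simulated data, the mean change of each of the 10519 genes was set to 0 and known changes were then added. At induction, limma recovered 15% of 100 genes changed by log2 1 and 99% of 100 changed by log2 2. For nilotinib it recovered 94% and 100%. The 0 calls among the other genes were fixed in advance by this step and give no rate of false calls. The shares recovered leave out sampling error in the estimates.

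The members and all lists were chosen with earlier results of these data known. Genes were named by a rule: Mki67, Top2a, Cdk1, Ccnb1, Pcna, Mcm5, Rrm2 and Tyms always, up to 4 S phase and 4 mitotic genes that passed with the smallest p (or the 2 of smallest p), and up to 3 from each further list with a call. Other genes named were chosen after their values were seen. Alternatives left out each mouse in turn, removed haemoglobin genes, changed the pseudocount to 0.1, the filter, the scale, the baseline week and the trend, added batch, or dropped the block. Python 3.11.15 with numpy 2.4.6, pandas 2.3.3 and matplotlib 3.10.9 made the summaries and figures.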

Additional observations from a re-analysis of the deposited data

Results flagged for a closer look

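In the groups of 4 to 7 mice, 21 sets of changes were searched for a mouse far from the others, and 3 held one, where chance alone gives about 1 in 20. Mcm5 in TKI mouse 511 had a log2 change of -0.51 under nilotinib, below the other 6. Stmn1 in TKI mouse 513 stood at 0.18, where the other 6 mice were lower at week 10. Mcm5 in TOTO mouse 476 stood at 1.73 from week 6 to week 18, above the other 3.

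Changes that differed between cohorts by limma's test of the difference were as follows. Between nilotinib and untreated CML mice, Ccnb2 differed by -0.96 and Kif23 by -1.42. Between TOTO and TKI mice from week 6 to week 8, the S phase genes differed by 1.54 (Mcm2), 1.39 (Mcm3), 1.60 (Mcm4), 1.69 (Mcm5), 1.62 (Mcm6), 2.01 (Mcm7), 1.96 (Pcna), 1.79 (Rrm1) and 1.16 (Tk1). Among mitotic genes the differences were 1.89 (Cenpa), 1.48 (Cks2), 0.84 (Stmn1) and -0.61 (Ccna2). All genes together had a median difference of 1.39 in that comparison, and the values on the rescaled scale are given in the report.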

How the results depend on the processing

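Counts of cell cycle genes that passed depended on the scale, the filter and the trend. They are given here, and wherever 1 mouse was left out, without the share of all genes called in that setting. Whether such a count lies above or below that share cannot be read from it. The genes tested were 22 with the filter, 23 rescaled with the filter, 31 with haemoglobin genes removed and 35 with no filter. For induction (2 as reported) the count was 13 rescaled, 15 with haemoglobin genes removed, 1 with a pseudocount of 0.1, 4 with no filter, 19 rescaled with no filter (20 with either other variance trend), 1 with the trend over the mean change, 0 with a batch term, 6 against week 1 (9 rescaled), 1 in CML alone, 14 in TKI alone, 17 in TKI alone rescaled (5 higher, 12 lower) and 15 in TOTO alone rescaled (10 higher, 5 lower). Induction minus control (0) gave 1 rescaled and 2 rescaled with no filter (1 over the mean change, 2 over all libraries), and CML minus control (0) gave 1 rescaled with no filter, also with the trend over all libraries but 0 with the trend over the mean change. Nilotinib (3) gave 9 rescaled, 6 with haemoglobin removed, 5 with no filter, 16 rescaled with no filter under each of the 3 trends, 1 with the trend over the mean change, and 12 at week 8 (8 rescaled). Nilotinib minus CML (2) gave 5 rescaled, 5 with haemoglobin removed, 1 with a pseudocount of 0.1, 0 with no filter, 10 rescaled with no filter under each trend, 0 with the trend over the mean change, 4 with a batch term and 5 at week 8 (5 rescaled). The comparison after nilotinib (4) gave 7 rescaled and 12 rescaled with no filter under each trend. TOTO week 18 minus week 6 (3) gave 12 rescaled, 17 with haemoglobin removed, 18 rescaled with no filter under each trend and 0 with a batch term. TOTO minus TKI (13) gave 21 with no filter and 20 rescaled with no filter under each trend. Fewer genes are tested under the filter, and for the other settings the cause was not tested. With haemoglobin removed, 31 genes were tested, and some directions differed from the rescaled fit with the filter. Induction had 3 higher and 12 lower, against 7 and 6 rescaled. TOTO week 18 minus week 6 had 13 and 4, against 3 and 9. TOTO minus TKI had 13 and 2, against 5 and 11. Nilotinib (0 and 6, against 0 and 9), nilotinib minus CML (1 and 4 in both) and after nilotinib (5 and 1, against 5 and 2) differed little.

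Without the replicate block, which ignores that both weeks come from the same mouse, 9 genes passed at induction and 0 in nilotinib, in nilotinib minus CML and in TOTO week 18 minus week 6. Leaving out each mouse in turn gave 1 to 6 genes for induction, 1 to 4 for nilotinib, 0 to 3 for nilotinib minus CML, 2 to 5 after nilotinib, 1 to 9 for TOTO week 18 minus week 6, 12 to 16 for TOTO minus TKI and 0 for the other 4. On rescaled values with the filter the ranges were 11 to 14, 7 to 10, 4 to 6, 3 to 7, 7 to 13 and 10 to 17 in the same order (10 without TOTO 483), 0 to 2 for induction minus control and for CML minus control, and 0 for the other 2. With no filter and without control mouse 490, nilotinib gave 6 genes (17 rescaled) and nilotinib minus CML 3 (11 rescaled). Of the 410 values of the 27 calls on the deposited scale with the filter, 374 still passed, 36 did not and 0 changed sign. Part of the 410 left out a mouse outside the groups compared, which cannot change the estimate or its sign. Most came from TOTO minus TKI, with 13 calls and 19 mice left out in turn. A batch term kept 20 of 27 calls and removing haemoglobin genes 25 of 27. Rescaling kept 18, lost 7 and reversed 2. Directions turned for Pcna at induction in TKI alone (0.73), for Tk1 at induction against week 1 (0.042) and in TKI alone (0.17), and in TOTO minus TKI after rescaling for Mcm3 (-0.10), Mki67 (-0.91), Top2a (-0.71) and Stmn1 (-0.55), with or without the filter and under each trend. Leaving out the 2 libraries with few genes changed no call, since neither entered a comparison.

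The data limit these results in several ways. TPM carry no read depth, so counting error is unknown, and 13 of the 35 genes averaged below 1 TPM. Only 3 mice were controls, and batch was constant within a mouse. The TPM + 1 scale understates changes of low genes. The setting that combines rescaling with no filter, and the variance trend used, were chosen after seeing the data.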
